A study of Mus musculus with 16 samples.

Results

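Gjb1, Gjc3, Nfasc, Cldn11 and Jam3 encode proteins of membrane contacts made by oligodendrocytes, the glial cells that wrap axons in myelin. Kcnj10 encodes a potassium channel of these cells. All these genes were taken by symbol from the deposited gene count table, in which they were 6 of 53801 genes. All 6 passed the filter on low counts, with 21768 genes in all. Messenger RNA was measured by directional poly(A) RNA sequencing in 16 libraries of oligodendrocyte lineage cells, which had been drawn from the brains of male mice by magnetic cell sorting. There were 4 libraries in each of 4 groups. The App_HFD group carried App NL-G-F/NL-G-F and ate the high-fat diet D12492 (fat 60.0% of energy; 524 kcal per 100 g). The App_NCD group had the same genotype and ate the control diet CE-2 (fat 12.5% of energy; 345.0 kcal per 100 g). The WT_HFD and WT_NCD groups were C57BL/6J Jcl mice on the same high-fat and control diets. Each diet was given for 6 months from 2 months of age, so all mice were 8 months old, and all were perfused with saline. These App mice are homozygous for a knock-in that places a humanised amyloid-β sequence with the Swedish, Beyreuther/Iberian and Arctic mutations in the mouse's own App gene. Per the labels' protocols they were kept as an inbred line while the wild type mice were bought from a supplier, so genotype and origin of the mice cannot be told apart. A library is named by its group and by its sample number in the labels. Since the labels do not state that each is a separate mouse, p-values measure the spread between these samples.

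As background, myelin depends on several kinds of membrane contact. Connexins form channels between adjacent cells or adjacent layers of one cell: Gjb1 encodes a connexin of myelin sheaths, whose loss in humans causes an inherited neuropathy, and Gjc3 encodes a connexin of myelinating glia found along the innermost myelin membrane. Kcnj10 encodes an inwardly rectifying potassium channel that oligodendrocytes and astrocytes use to take up potassium released by active axons. Cldn11 encodes the claudin of the tight junctions that run through central myelin, and Jam3 encodes a junctional adhesion molecule of the immunoglobulin family, which endothelial cells also make. Nfasc encodes neurofascin, whose glial form anchors the end of each myelin segment at the paranode by binding axonal contactin and its partner Caspr, while its neuronal form lies at the node. The deposited counts were per gene, so the glial and neuronal forms of Nfasc were not separated.

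Totals were 64538297 to 84114322 counts in App_HFD, 69772745 to 101709022 in App_NCD, 90220118 to 101737328 in WT_HFD and 98588561 to 217925484 in WT_NCD, and the smallest count of any of the 6 genes was 1881. Library App_NCD 553 stood apart: 39.4% of its counts were mitochondrial, against 1.22% to 4.62% in the other 15, and it had 18928 genes above 0, against 27151 to 30617. Most results that it moves are given with and without it. Levels are in CPM, the usual unit of counts scaled to a common library size, here after TMM scaling. App itself lay between 2095 and 2551 CPM in App libraries and between 2377 and 4011 CPM in wild type ones, and its level does not test the labels, since the knock-in alters its sequence. Mog, a myelin glycoprotein gene that marks mature oligodendrocytes, lay between 229 and 729 CPM. RNA of other cells was present too, with the astrocyte glutamate transporter gene Slc1a2 at 644 to 2955 CPM and the choroid plexus gene Ttr at 6439 to 33236 CPM. Neuronal markers differed among themselves: Tubb3 ran from 8.46 to 98.6 CPM, Snap25 from 1.16 to 9.63 CPM and Syt1 from 0.659 to 4.85 CPM. Rbfox3 and Slc17a7, the lowest on average, stayed at or below 0.425 and 0.257 CPM and reached 0 in at least 1 library.

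The 6 genes lie on 5 chromosomes (mm10, GENCODE release 21). Gjb1 (ENSMUSG00000047797) is at chrX:101376378-101385629 on the plus strand, Gjc3 (ENSMUSG00000056966) at chr5:137953461-137963098 on the minus strand, and Kcnj10 (ENSMUSG00000044708) at chr1:172341210-172374085 on the plus strand. Nfasc (ENSMUSG00000026442) is at chr1:132564690-132741797 on the minus strand, Cldn11 (ENSMUSG00000037625) at chr3:31149920-31164324 on the plus strand, and Jam3 (ENSMUSG00000031990) at chr9:27097384-27155421 on the minus strand. Nfasc overlaps Gm10538 and Jam3 overlaps Gm48796, each on the opposite strand. The libraries were directional, but whether strand was used in counting is not given in the sources used here, so reads of such pairs may not have been told apart. Nfasc has 10 annotated transcripts and its exons together span 14.14 kb, so its level per kb is a low estimate for any one transcript.

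The 250 bases before the start site are shown for the connexin genes Gjb1 and Gjc3 and the claudin gene Cldn11, because Gjc3 and Cldn11 sat at opposite ends of the range in library App_NCD 553, with Gjb1 on the side of Cldn11. RefSeq (GRCm38.p6) gave such windows for 5 of the 6 genes, and 4 for Gjb1, of which the most downstream is shown. Capitals mark matches on either strand to 4 motifs. The SOX core, bound by SOX factors such as the SOX10 of the oligodendrocyte lineage, was searched as ACAAAG and, in its other form, as ACAATG. The GC box was searched as GGGCGG, the TATA box as TATAAA, and the CCAAT box by the letters of its name. A site of the myelin regulator MYRF was searched too, as CTGGCAC and, in another form, CTGGTAC. Each is written 5′ to 3′ along the gene's strand.
Gjb1, chrX:101383482-101383731, plus strand: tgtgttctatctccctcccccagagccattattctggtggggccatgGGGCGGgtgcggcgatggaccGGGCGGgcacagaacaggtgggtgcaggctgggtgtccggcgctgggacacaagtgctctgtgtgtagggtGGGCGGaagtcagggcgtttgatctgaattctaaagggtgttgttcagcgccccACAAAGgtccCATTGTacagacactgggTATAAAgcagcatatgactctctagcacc
Cldn11, chr3:31149670-31149919, plus strand: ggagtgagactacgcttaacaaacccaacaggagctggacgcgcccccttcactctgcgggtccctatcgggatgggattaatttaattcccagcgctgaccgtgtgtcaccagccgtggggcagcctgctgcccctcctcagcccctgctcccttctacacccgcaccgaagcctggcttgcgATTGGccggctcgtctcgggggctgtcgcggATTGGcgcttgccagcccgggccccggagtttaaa
Gjc3, chr5:137963099-137963348, minus strand: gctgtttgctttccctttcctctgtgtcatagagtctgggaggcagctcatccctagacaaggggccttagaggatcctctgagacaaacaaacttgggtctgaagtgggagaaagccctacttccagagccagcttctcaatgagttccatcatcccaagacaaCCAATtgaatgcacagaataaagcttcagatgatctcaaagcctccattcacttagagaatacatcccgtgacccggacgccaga
The Gjb1 window held 2 matches to the SOX core (57 and 47 bases before the start), 3 to the GC box and 1 to the TATA box (29 bases before the start). The Cldn11 window held 2 CCAAT boxes, read on the opposite strand, and 19 CG dinucleotides, the Gjc3 window 1 CCAAT box and 3 CG dinucleotides, and the Gjb1 window 10 CG dinucleotides, beside a median of 6 over all windows. None of the 3 held the MYRF letters. Among all 32851 windows of this length, 25.2% held the SOX core, 32.7% the GC box, 33.8% the CCAAT box, 12.4% the TATA box and 5.93% the MYRF letters. No motif was shared by all 3 windows shown, which depends on the Gjb1 window chosen. The Gjb1 windows starting at chrX:101376126 and chrX:101376985, not shown, each held 1 CCAAT box, a motif that the Cldn11 and Gjc3 windows also held. The window starting at chrX:101376126 held 1 match to the SOX core as well. The Gjb1 window starting at chrX:101381868 held no match to any motif.

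Per kb of exon, the mean level over the 16 libraries was highest for Cldn11 (824 CPM per kb, rank 45 of 21715 genes with a length), followed by Kcnj10 (122), Gjc3 (118), Nfasc (70.04), Gjb1 (69.3) and Jam3 (51.0). Cldn11 exceeded Kcnj10 in 16 of 16 libraries, by 2.24 to 12.4 times. Kcnj10 exceeded Gjc3 in 12 of 16 and Nfasc exceeded Gjb1 in 10 of 16, so neither pair of neighbours kept its order in all libraries. The exceptions for Kcnj10 were App_NCD 553 and WT_NCD 5, 11 and 12, all on the control diet, and those for Nfasc came from all 4 groups. Gjc3 exceeded Nfasc in 16 of 16 libraries, and Gjb1 exceeded Jam3 in 15 of 16, the exception being WT_NCD 11. The lowest of the 6, Jam3, still ranked 754 of 21715.

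**Figure D1:**
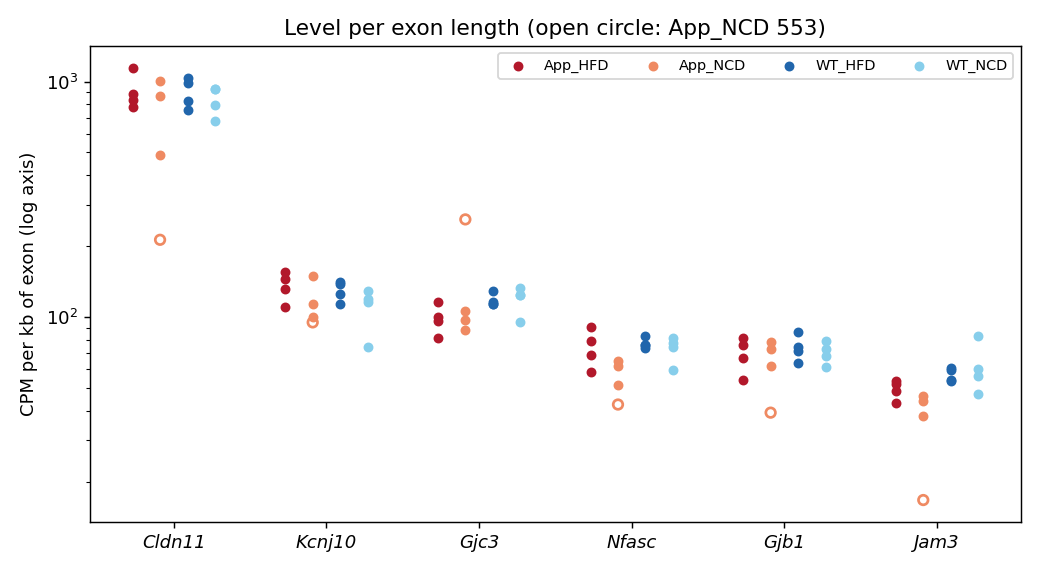
Level of each gene in CPM per kb of exon (log axis), 1 point per library, coloured by group, with App_NCD 553 drawn as an open circle. Cldn11 lies above the other 5 genes in 15 libraries, while in App_NCD 553 it is at 213 and Gjc3 at 260 CPM per kb, and App_NCD 553 lies at the top of the Gjc3 points and at the bottom of the Cldn11, Nfasc, Gjb1 and Jam3 points.

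Of the connexins, Gjb1 did not differ between groups beyond the spread of the libraries. It had 139, 92.1, 129 and 114 CPM in the App_HFD libraries and 106, 124, 134 and 67.0 CPM in the App_NCD libraries. It had 127, 122, 148 and 109 CPM in the WT_HFD libraries and 105, 135, 117 and 124 CPM in the WT_NCD libraries. The 4 groups overlapped, and App_NCD 553, at 67.0 CPM, was below all other 15 libraries. The log2 fold change of App_HFD over App_NCD was 0.14 ± 0.19 (SE; 95% interval -0.27 to 0.55) and that of App_NCD over WT_NCD -0.16 ± 0.19 (-0.57 to 0.25), with adjusted p of 0.761 and 0.618 by edgeR's quasi-likelihood test. App_HFD over WT_HFD gave -0.09 ± 0.19 (-0.50 to 0.32) and WT_HFD over WT_NCD 0.07 ± 0.19 (-0.34 to 0.48). Without App_NCD 553 the 4 values lay between -0.11 and 0.07.

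Gjc3 had 435, 355, 419 and 505 CPM in the App_HFD libraries and 382, 421, 463 and 1132 CPM in the App_NCD libraries. It had 493, 495, 564 and 506 CPM in the WT_HFD libraries and 413, 577, 539.7 and 543 CPM in the WT_NCD libraries. App_NCD 553 was the highest of the 16, at 2.68 times the mean of the other 3 App_NCD libraries; the other 15 lay between 355 and 577 CPM, with App_HFD 559 and App_NCD 537 lowest. The direction of the control-diet genotype comparison turned on that library: App_NCD over WT_NCD gave 0.21 ± 0.28 (SE; adjusted p = 0.647, edgeR) with it and -0.33 ± 0.14 (adjusted p = 0.108, edgeR, 95% interval -0.62 to -0.04) without it. On the high-fat diet, App_HFD over WT_HFD gave -0.26 ± 0.28 with 16 libraries and -0.28 ± 0.13 without App_NCD 553, with adjusted p of 0.768 and 0.134 by edgeR. The scaling entered as well: scaled by the plain library total, Gjc3 in App_NCD 553 was 558 CPM, within the 361 to 611 of the other libraries, because that library's TMM factor was 0.493. On the plain scale Gjb1, Kcnj10, Nfasc, Cldn11 and Jam3 in App_NCD 553 were all below the other 15 libraries.

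For the potassium channel gene Kcnj10, levels were 714, 597, 785 and 843 CPM in App_HFD and 805, 541, 613 and 513 CPM in App_NCD. They were 615, 750.1, 759 and 678 CPM in WT_HFD and 646, 695, 405 and 629 CPM in WT_NCD. The groups overlapped, and the lowest library was WT_NCD 11 and not App_NCD 553. Group means were 735 ± 106 CPM in App_HFD and 618 ± 132 CPM in App_NCD (SD, n = 4 each), a log2 fold change of 0.25 ± 0.19 (SE, adjusted p = 0.588, edgeR). In wild type mice they were 700.4 ± 67.5 CPM in WT_HFD and 594 ± 129 CPM in WT_NCD (SD, n = 4 each), a log2 fold change of 0.24 ± 0.19 (SE, adjusted p = 1, edgeR). The diet differences were close in size in both genotypes and neither passed the test; the interaction was 0.01 ± 0.27 (95% interval -0.55 to 0.58). The genotype differences were 0.06 ± 0.19 on the control diet and 0.07 ± 0.19 on the high-fat diet. When App_NCD 553 was left out, the App diet difference was 0.17 ± 0.18, the control-diet genotype difference 0.11 ± 0.18 and the interaction -0.06 ± 0.25, and none passed. Astrocytes also express Kcnj10: the 12 astrocyte markers summed to 3081 to 4421 CPM in App_HFD, 2380 to 7581 in App_NCD, 4203 to 6138 in WT_HFD and 3697 to 5725 in WT_NCD, and their part in the Kcnj10 level was not tested.

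For Nfasc, the paranodal adhesion gene, levels were 975, 830.0, 1119 and 1281 CPM in App_HFD and 923, 727, 875 and 601 CPM in App_NCD. They were 1041, 1175, 1081 and 1080.3 CPM in WT_HFD and 839, 1157, 1052 and 1093 CPM in WT_NCD. Group means were 1051 ± 193 CPM in App_HFD, 781 ± 146 in App_NCD, 1094 ± 57.1 in WT_HFD and 1035 ± 138 in WT_NCD (SD, n = 4 each). App_NCD was the lowest group and App_NCD 553 the lowest library, though App_NCD overlapped with App_HFD and with WT_NCD. App_HFD over App_NCD gave 0.43 ± 0.17 (SE, 95% interval 0.07 to 0.79) and App_NCD over WT_NCD -0.41 ± 0.17 (-0.77 to -0.05), with unadjusted p of 0.0228 and 0.0294 and adjusted p of 0.392 and 0.143 by edgeR, so neither passed. These comparisons share the App_NCD libraries. Without App_NCD 553 the values were 0.33 ± 0.15 and -0.33 ± 0.15, with adjusted p of 0.706 and 0.15. The remaining differences were small: -0.06 ± 0.17 for App_HFD over WT_HFD and 0.08 ± 0.17 for WT_HFD over WT_NCD. Neurons make another form of neurofascin. The 10 neuron markers summed to no more than 106 CPM in any library, of which Tubb3 alone was 8.46 to 98.6 CPM, and their part in the Nfasc level was not tested.

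The claudin gene Cldn11 was the most variable of the 6 within App_NCD besides Gjc3. It had 2146, 1461, 1656 and 1566 CPM in App_HFD and 912, 1623, 1890.4 and 398 CPM in App_NCD. It had 1421, 1549, 1934 and 1852 CPM in WT_HFD and 1269.9, 1732, 1735 and 1494 CPM in WT_NCD. App_NCD 553, at 0.270 times the mean of the other 3 App_NCD libraries, was the lowest library and App_NCD 537 the next lowest, while App_NCD 538 and 545 lay within the range of the wild type libraries. App_HFD over App_NCD gave 0.50 ± 0.34 (SE, adjusted p = 0.548, edgeR) and App_NCD over WT_NCD -0.37 ± 0.33 (adjusted p = 0.495). Without App_NCD 553 these were 0.22 ± 0.21 and -0.11 ± 0.21, no more than about 1 SE from 0. App_HFD over WT_HFD was 0.02 ± 0.33 (95% interval -0.70 to 0.73) with 16 libraries and -0.01 ± 0.20 (-0.43 to 0.41) without App_NCD 553.

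Jam3, the adhesion molecule gene, had lower values in every App library than in every wild type library on the same diet, and it was the only one of the 6 that passed the test in any fit. It had 170.4, 138, 156 and 167 CPM in App_HFD, against 195, 172, 189.7 and 172 CPM in WT_HFD. It had 122, 140.2, 148 and 53.4 CPM in App_NCD, against 151, 192, 265 and 180.1 CPM in WT_NCD. The gap was narrow: the highest App_HFD library was at 170.4 and the lowest WT_HFD library at 172 CPM, and the highest App_NCD library was at 148 and the lowest WT_NCD library at 151 CPM. Groups lay apart in this direction for 10% of the 21768 tested genes on the high-fat diet, for 8.27% on the control diet and for 3.11% on both (for 5.85% of 22322 without App_NCD 553), so such a gap is not particular to Jam3. With all 16 libraries App_NCD over WT_NCD was -0.77 ± 0.25 (SE; adjusted p = 0.0678, edgeR), short of the threshold of 0.05. Without App_NCD 553, where App_NCD has 3 libraries, Jam3 fell by 0.56 ± 0.15 on the log2 scale (adjusted p = 0.0222, edgeR), as did 7.22% of all tested genes at this threshold. The call was also made without App_NCD 545 (-0.94, adjusted p = 0.0451) and without WT_NCD 4 (-0.91, adjusted p = 0.0493), and by DESeq2 with 16 libraries (-0.78, adjusted p = 0.0263). It was not made without WT_NCD 11, the library with the highest Jam3 level, where the value was -0.62 (adjusted p = 0.188, edgeR). Over 23 alternative settings the log2 fold change ran from -0.95 to -0.25 and the adjusted p from 0.0222 to 0.216, with 4 calls, and the smallest differences came from scaling to oligodendrocyte markers. On the high-fat diet App_HFD over WT_HFD was -0.21 ± 0.25 (adjusted p = 0.813) and without App_NCD 553 -0.23 ± 0.14 (adjusted p = 0.304), not a call. The 2 genotype differences were not shown to differ, with an interaction of 0.56 ± 0.35 (95% interval -0.18 to 1.30; without App_NCD 553 0.33 ± 0.21).

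**Figure D2:**
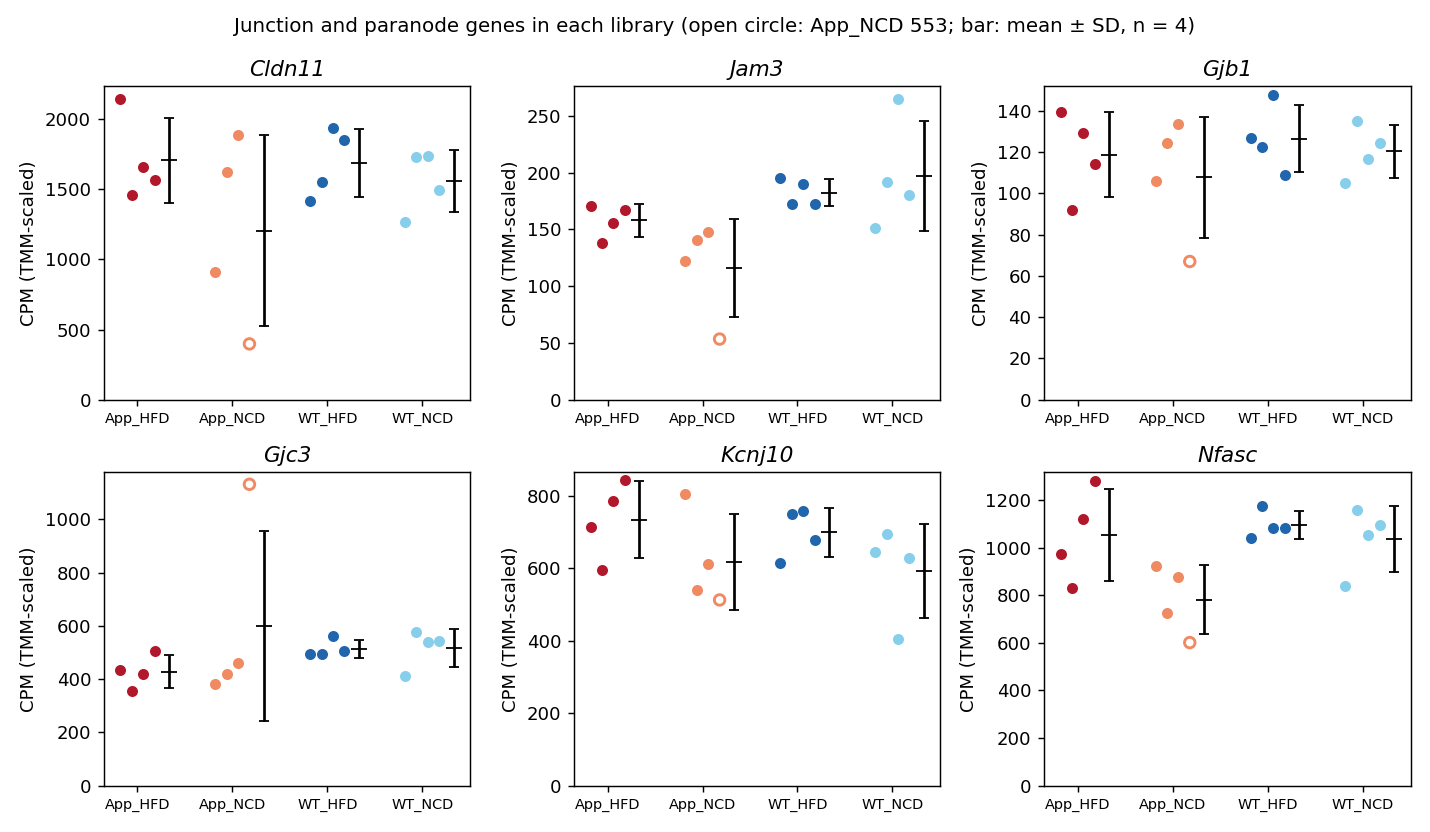
CPM of each of the 6 genes in each of the 16 libraries, grouped as App_HFD, App_NCD, WT_HFD and WT_NCD, with App_NCD 553 drawn as an open circle. Bars give the mean ± SD (n = 4). The groups compared overlap for Gjb1, Kcnj10, Nfasc and Cldn11, App_NCD 553 stands far above the others for Gjc3, and the Jam3 points of App mice lie below those of wild type mice on the same diet.

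In bulk libraries such as these, fewer cells of a type and less RNA per cell cannot be told apart, so the composition of the libraries is given beside the Jam3 result. The 10 endothelial markers summed to 258 to 313 CPM in App_HFD and 198 to 318 in App_NCD, against 259 to 507 in WT_HFD and 243 to 447 in WT_NCD. Of these 10, 2 fell in App over wild type on the control diet and 2 on the high-fat diet, and 6 and 5 fell in the fit without App_NCD 553. Such counts of markers, here and below, compare App with wild type on the named diet. They stand beside 8.39% of all tested genes called in either direction on the control diet and 7.14% on the high-fat diet. Without App_NCD 553 these shares were 17.5% and 19.3%. No endothelial marker was at 0 in any library. The 8 pericyte and smooth muscle markers summed to 175 to 201 CPM in App_HFD and 132 to 185 in App_NCD, against 159 to 347 in WT_HFD and 237 to 303 in WT_NCD, so they lay apart on the control diet, as Jam3 did. Of these 8, 3 fell on the control diet and 1 on the high-fat diet, and 5 and 4 fell without App_NCD 553. The 8 ependyma and choroid plexus markers also had sums that lay apart, on both diets. They summed to 7072 to 14728 CPM in App_HFD, against 17706 to 36227 in WT_HFD, and 9038 to 21005 in App_NCD, against 24459 to 30083 in WT_NCD. Their mean log2 CPM overlapped on the control diet, and 0 of 8 passed there in either fit. All 5 erythroid markers were lower in App_HFD than in WT_HFD, with a median log2 fold change of -3.47. In App_NCD over WT_NCD 0 of 5 passed, and the median was 0.21. They summed to 147 to 467 CPM in App_HFD and 435 to 1195 in App_NCD, against 384 to 9049 in WT_HFD and 405 to 1084 in WT_NCD. The WT_HFD libraries were uneven: WT_HFD 2 and 16 were at 9049 and 4719 CPM, and WT_HFD 15 and 3 at 1126 and 384 CPM. Of the 10 oligodendrocyte precursor markers 1 rose and 1 fell on each diet, but without App_NCD 553 3 fell on the high-fat diet. None of the 6 border macrophage markers passed on either diet, but without App_NCD 553 1 rose on the high-fat diet. The 18 mature oligodendrocyte markers averaged 9.75 to 10.07 log2 CPM in App_HFD, against 10.05 to 10.31 in WT_HFD. On the control diet they averaged 9.29 to 10.01 in App_NCD (9.62 to 10.01 without App_NCD 553), against 9.81 to 10.24 in WT_NCD. Their sums were 42835 to 55444 CPM in App_HFD and 55520 to 66636 in WT_HFD, narrowly apart. They were 39632 to 68408 CPM in App_NCD and 50464 to 67983 in WT_NCD. App_NCD 553 had the highest sum but the lowest mean log2 CPM. Without it App_NCD reached 50241 CPM, just below all WT_NCD libraries. None of those 18 passed the test on the control diet and 1 fell on the high-fat diet, or 2 without App_NCD 553. All 12 markers of disease-associated microglia, the state that microglia take up around amyloid plaques, rose on both diets, with median log2 fold changes of 4.52 in App_NCD over WT_NCD and 4.68 in App_HFD over WT_HFD, and their summed level was 4365 to 7683 CPM in App_HFD and 5738 to 7368 in App_NCD, against 518 to 705 in WT_HFD and 573 to 776 in WT_NCD. The part of any of these in the Jam3 level was not tested.

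**Figure D3:**
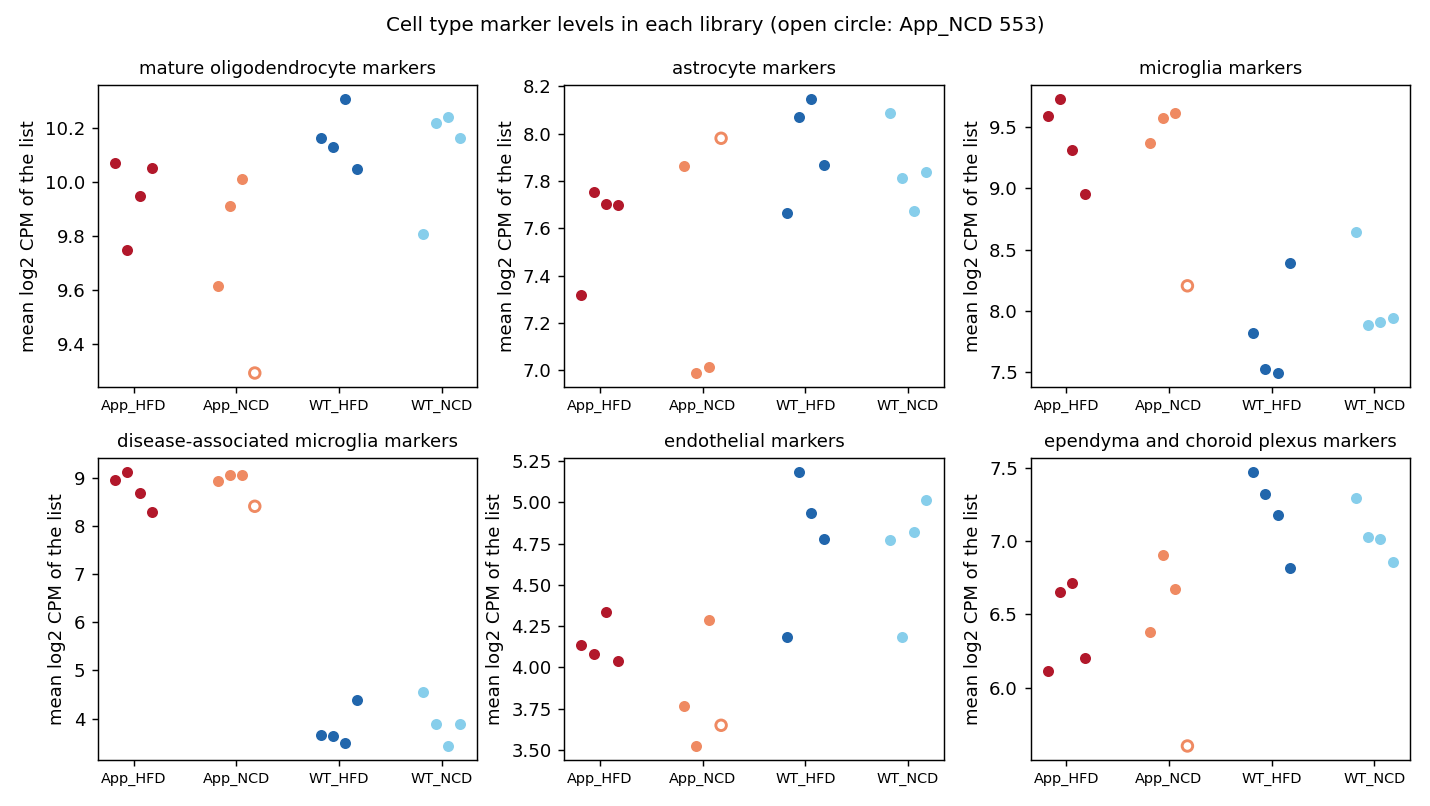
Mean log2 CPM of 6 lists of cell type markers in each library, by group, with App_NCD 553 drawn as an open circle. Markers of disease-associated microglia lie between 8.30 and 9.13 in App libraries and between 3.43 and 4.55 in wild type ones, while the mature oligodendrocyte, astrocyte and endothelial markers overlap between the genotypes on each diet.

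Set side by side, the diet comparisons gave no call among the 6 genes in either genotype, nor did the interaction, where 0% of the tested genes passed as well. In App mice the high-fat diet gave 5 of 6 log2 fold changes above 0, while 46.2% of all tested genes were below 0, with a median of 0.34 over the 6 beside 0.04 over all; without App_NCD 553 the medians were 0.19 and 0.00. At an unadjusted p under 0.05 there was 1 of 6 in App mice, beside 11.9% of all genes. There was 0 of 6 in wild type mice, beside 1.92%, and 0 of 6 in the interaction, beside 2.94%. DESeq2 also called 0 of 6 in each, beside 102, 7 and 3 of 21768 genes. In wild type mice the median was 0.08 over the 6, beside -0.02 over all genes. In the genotype comparison on the control diet 0 of 6 passed, beside 8.39% of tested genes, with 2 of 6 at an unadjusted p under 0.05, beside 26.3%; without App_NCD 553 1 of 6, Jam3, beside 17.5%. There 5 of 6 values were below 0, as were 54.9% of all genes, and the medians were -0.22 and -0.05. In the genotype comparison on the high-fat diet 0 of 6 passed, beside 7.14%, or 19.3% without App_NCD 553. At an unadjusted p under 0.05 there was 0 of 6, beside 18.1%, and DESeq2 called 0 of 6, beside 2508 of 21768 genes. The median was -0.07 over the 6, beside 0.01 over all genes. Comparisons with a group in common share its libraries.

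**Figure D4:**
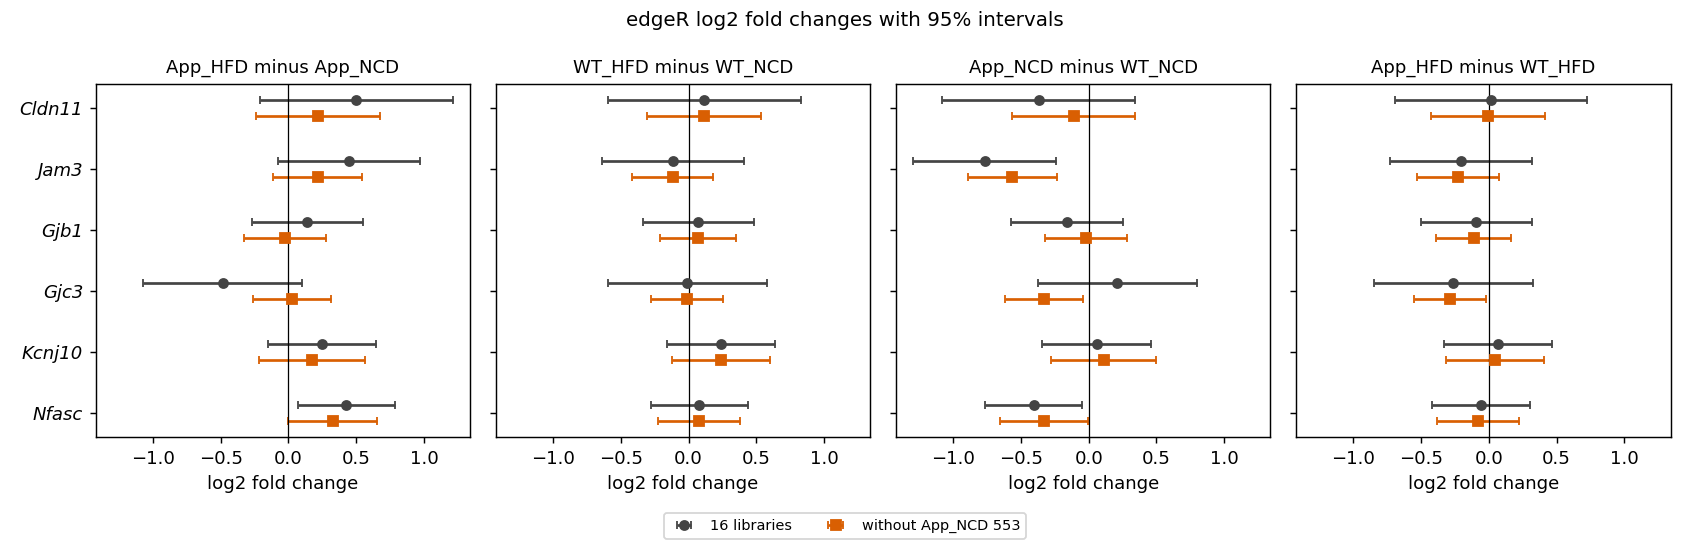
Log2 fold changes of the 6 genes with 95% intervals from edgeR, in the 2 diet and the 2 genotype comparisons, with 16 libraries (dots) and without App_NCD 553 (squares). Intervals, which are not adjusted for the number of genes, leave out 0 for Jam3 and Nfasc in App_NCD minus WT_NCD and for Nfasc in App_HFD minus App_NCD in both fits, and for Gjc3 in the genotype panels in the fit without App_NCD 553.

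The genes that act with the 6 were followed as 4 lists that leave the 6 out. In the diet comparisons and the interaction no gene of any list passed, by edgeR with 16 libraries or under any of the 23 alternatives, DESeq2 among them; at an unadjusted p under 0.05 there were 12 of 63 genes in App mice, 0 in wild type mice and 2 in the interaction, beside 11.9%, 1.92% and 2.94% of all tested genes. With 16 libraries, genotype calls of the lists stand beside 8.39% of all tested genes on the control diet and 7.14% on the high-fat diet. Without App_NCD 553 these shares were 17.5% and 19.3%. At an unadjusted p under 0.05 the shares of all genes with 16 libraries were 26.3% and 18.1%. Counts by DESeq2 stand beside its 3398 calls among 21768 genes on the control diet and 2508 on the high-fat diet. Of the gap junction list, 7 of 8 genes were tested. Panx1, which encodes a pannexin channel, rose in App_NCD (1.65 ± 0.45, adjusted p = 0.0344, edgeR) at a low level, 3.33 ± 1.79 CPM in App_NCD, against 1.07 ± 0.412 CPM in WT_NCD (SD, n = 4 each). Without App_NCD 553 it was 1.95 ± 0.29 (adjusted p = 0.000289, edgeR). The call was made under 11 of 23 alternatives. It was lost with library totals, without the filter and without any 1 of 10 libraries (App_HFD 559, 560 and 561, App_NCD 537, 538 and 545, WT_HFD 3, and WT_NCD 5, 11 and 12), where the value was 1.45 to 1.68 and the adjusted p 0.0504 to 0.111. On the high-fat diet 0 of 7 passed (2 at an unadjusted p under 0.05, and 2 by DESeq2), and the astrocyte connexin genes Gjb6 and Gja1 gave -0.25 ± 0.45 and -0.40 ± 0.29. Without App_NCD 553, Gjc1 and Gjb6 fell on the control diet (-0.76 ± 0.18 and -0.79 ± 0.20, adjusted p = 0.00995 and 0.0134), and Panx1 rose and Gjc1 fell on the high-fat diet (1.38 ± 0.27 and -0.65 ± 0.17, adjusted p = 0.00219 and 0.0122). With 16 libraries Gjb6 on the control diet was 0.26 ± 0.45, of the opposite sign. The list's median was -0.07 on the control diet and -0.33 on the high-fat diet, beside -0.02 and 0.01 over all genes; without App_NCD 553 it was -0.59 and -0.35, beside -0.05 and -0.02.

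Of the 13 potassium and water handling genes, 1 rose and 1 fell on each diet. Kcnj2, an inward rectifier of the same family as Kcnj10, averaged 58.1 ± 5.17 CPM in App_HFD and 62.3 ± 10.2 CPM in App_NCD, against 9.33 ± 2.09 CPM in WT_HFD and 9.19 ± 1.71 CPM in WT_NCD (SD, n = 4 each). It rose by 2.76 ± 0.19 on the control diet and 2.64 ± 0.19 on the high-fat diet on the log2 scale (adjusted p = 3.68e-07 and 6.62e-07, edgeR), and both calls were made under all 23 alternatives. Microglia express Kcnj2. Of 12 microglia markers, 7 rose on the control diet and 10 on the high-fat diet, and 10 on each without App_NCD 553. They summed to 8935 to 15041 CPM in App_HFD, against 2832 to 5334 in WT_HFD. On the control diet they summed to 7015 to 13810 CPM in App_NCD, against 3768 to 6276 in WT_NCD. Their part in the Kcnj2 level was not tested. Mlc1, an astrocyte endfoot membrane gene, fell on the control diet (-0.96 ± 0.26, adjusted p = 0.0305), and Atp1b1, a sodium pump subunit, on the high-fat diet (-1.25 ± 0.30, adjusted p = 0.0197). The Mlc1 call was made under 16 of 23 alternatives (without App_NCD 553 at -0.76 ± 0.18). It was lost with library totals, with oligodendrocyte scaling, and without App_NCD 545, WT_NCD 4, 5 or 12 (-1.01 to -0.92, adjusted p 0.0504 to 0.061). The Atp1b1 call was made under 18 of 23 and lost with oligodendrocyte scaling of 16 libraries and without App_HFD 547, 559 or 561 or WT_HFD 2 (-1.28 to -0.97, adjusted p 0.0582 to 0.0801). Without App_NCD 553, Clcn2, a chloride channel gene, fell on the control diet (-0.46 ± 0.11, adjusted p = 0.0116). Astrocyte markers moved in the same comparison: 2 of 12 fell on the control diet, and 5 of 12 without App_NCD 553. The list's medians were -0.30 and -0.25, and -0.41 and -0.27 without App_NCD 553.

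Of the 18 tight junction genes, 0 passed on the control diet (6 at an unadjusted p under 0.05, and 2 by DESeq2) and 4 fell on the high-fat diet: Cgn (-1.18 ± 0.23, adjusted p = 0.00571), Ocln (-0.95 ± 0.22, 0.016), Cldn1 (-1.47 ± 0.36, 0.0192) and Cgnl1 (-1.17 ± 0.29, 0.0213), by edgeR. They encode cingulin, occludin, a claudin and paracingulin, which are proteins of epithelial tight junctions. Cldn1 averaged 52.1 ± 11.8 CPM in App_HFD and 144 ± 59.5 CPM in WT_HFD (SD, n = 4 each). Markers of ependyma and choroid plexus, an epithelium, fell there as well, 4 of 8, or 5 of 8 without App_NCD 553. These markers summed to 7072 to 14728 CPM in App_HFD, against 17706 to 36227 in WT_HFD, and Tmem212 was at 0 in at least 1 library. Their part in the 4 calls was not tested, and scaling to oligodendrocyte markers left 0 of the 4 with 16 libraries and all 4 without App_NCD 553. Without App_HFD 547, App_HFD 561 or WT_HFD 2 the calls of Ocln, Cldn1 and Cgnl1 were lost, and without App_HFD 559 that of Cgnl1, with adjusted p between 0.052 and 0.0834. On the control diet the 3 genes with the highest level per kb, Tspan3, F11r and Tjp1, gave -0.09 ± 0.30, 0.24 ± 0.29 and 0.40 ± 0.24. Without App_NCD 553 Tjp1 gave -0.04 ± 0.12. In that fit Tspan3, a tetraspanin known as a partner of the Cldn11 protein, and Ocln fell there (-0.68 ± 0.16 and -0.71 ± 0.20, adjusted p = 0.0092 and 0.0236) and F11r, of the same family as Jam3, rose (0.48 ± 0.16, adjusted p = 0.0485), while on the high-fat diet 1 rose and 8 fell. The median was -0.16 on the control diet and -0.36 on the high-fat diet, and -0.46 and -0.38 without App_NCD 553.

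Of the node and paranode list, 25 of 26 genes were tested with 16 libraries and 26 without App_NCD 553. Epb41l2, a cytoskeletal adaptor, and Cadm1, an adhesion molecule, rose on the control diet (1.09 ± 0.18 and 1.11 ± 0.21, adjusted p = 0.00111 and 0.00364, edgeR), and without App_NCD 553 they gave 0.87 ± 0.13 and 0.75 ± 0.11. On the high-fat diet Epb41l2 rose (0.77 ± 0.18, adjusted p = 0.0137) and Cntn1 fell (-1.01 ± 0.18, adjusted p = 0.00222). Cntn1 encodes contactin, the axonal partner of glial neurofascin, which oligodendrocytes also make. It averaged 139 ± 15.4 CPM in App_HFD and 279 ± 64.3 CPM in WT_HFD (SD, n = 4 each). Without App_NCD 553, 2 rose and 4 fell on each diet, among them Cntn1 and Cadm2 on both (Cntn1 -0.64 ± 0.16 and -1.03 ± 0.15, Cadm2 -0.53 ± 0.10 and -0.63 ± 0.09, for the control diet and then the high-fat diet). With 16 libraries Cadm2 on the control diet was 0.27 ± 0.35, of the opposite sign. With oligodendrocyte scaling 0 of the list passed on the high-fat diet with 16 libraries and 3 without App_NCD 553. The call of Epb41l2 on the high-fat diet was lost without App_HFD 559 or WT_HFD 2, 3 or 15 (0.68 to 0.74, adjusted p 0.0524 to 0.0604). The medians were -0.12 and -0.17, and -0.34 and -0.19 without App_NCD 553.

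**Figure D5:**
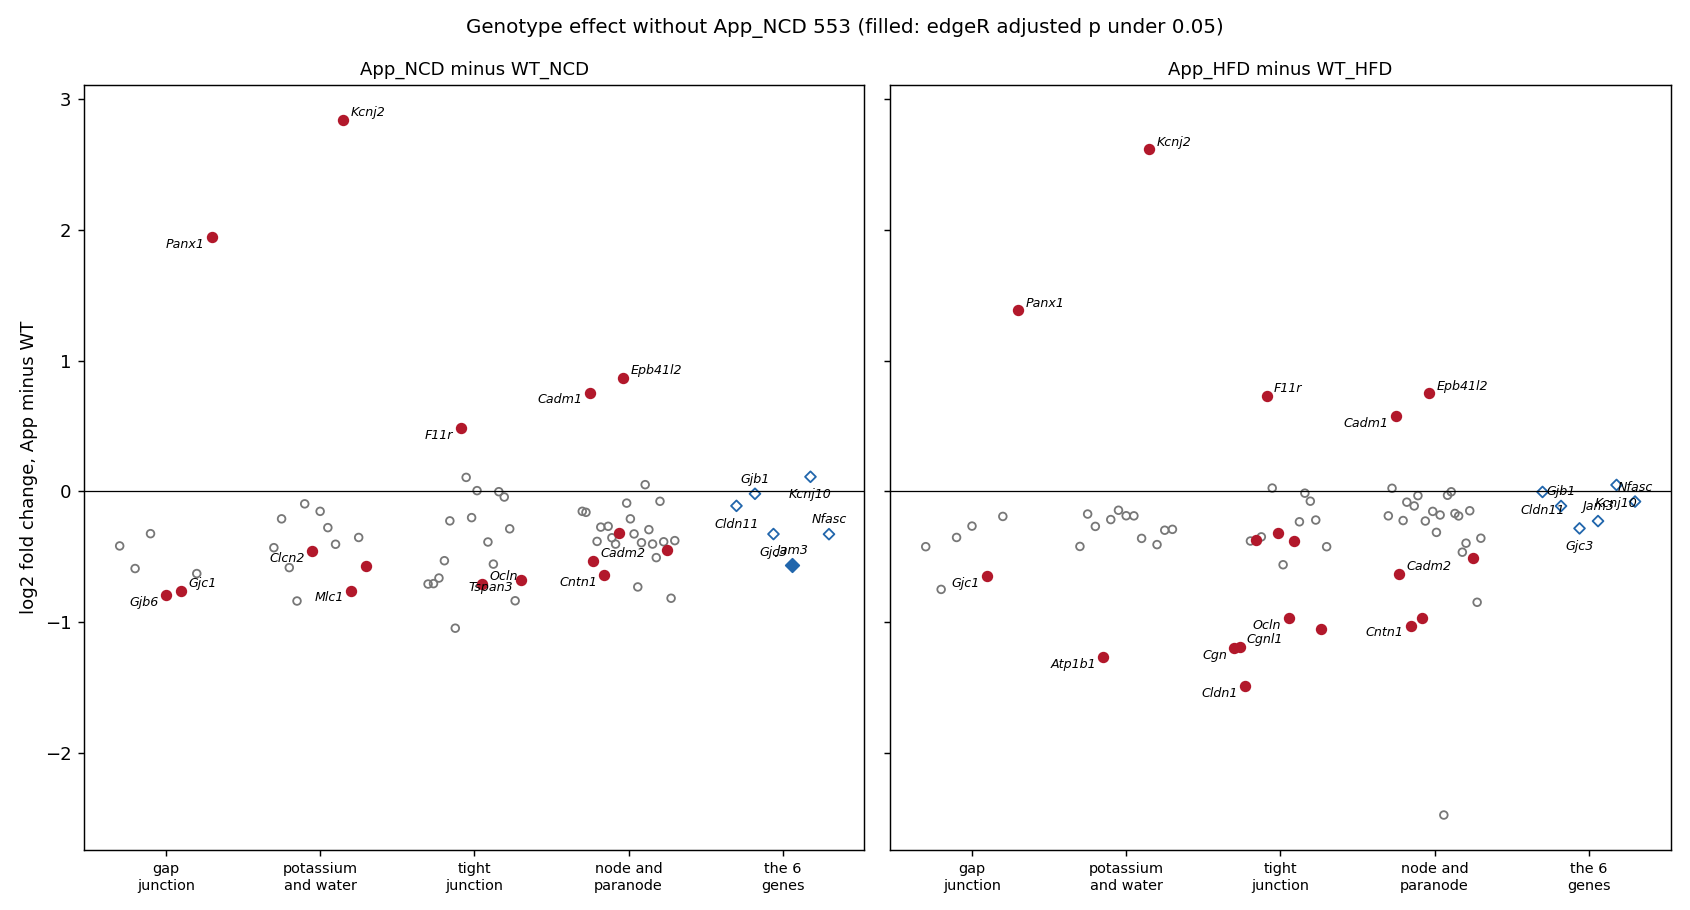
Log2 fold change of App over wild type for each gene of the 4 lists and the 6 junction and paranode genes (diamonds), on the control diet (left) and the high-fat diet (right), in the edgeR fit without App_NCD 553. Filled symbols passed an adjusted p of 0.05, and names are given for genes described in the text; Kcnj2 and Panx1 stand highest on both diets, and of the 6 genes Jam3 is filled, on the control diet.

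Across the 15 libraries without App_NCD 553, the log2 CPM of the 6 genes went together unevenly. The highest Pearson r was 0.80, between Gjc3 and Jam3, followed by 0.71 between Gjc3 and Nfasc and 0.61 between Gjb1 and Gjc3, and the lowest was -0.41, between Kcnj10 and Jam3. These are descriptions over libraries that share depth, scaling and the group differences above, and with App_NCD 553 included Gjc3 against Jam3 became -0.49. Among 14877 genes of at least 1 CPM, the closest to Gjc3 were Mturn, Tmem88b, Scd2, Dlg1 and Fads6 (r of 0.95 to 0.96), and to Jam3 Phgdh, Aplp1, Atp9a, Itfg2 and Lrrc1 (0.96 to 0.97). The closest to Nfasc were Abca2, Arhgef10, Rbl2, Rufy3 and Clmn (0.95 to 0.97), and to Cldn11 Selenom, Pdlim2, BB187690, Taldo1 and Snu13 (0.92 to 0.95). Kcnj10 was closest to Ndc1, Meis1, Rprd2, Zfp280c and Wipf2 (0.91 to 0.95). Gjb1 had the loosest neighbours, Gosr1, Tubg2, Kctd7, Dusp26 and Spg20 (0.81 to 0.84). None of the 6 was among the 5 closest genes of another; the nearest was Gjc3, at rank 204 for Gjb1.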

How the data were processed

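Messenger RNA of oligodendrocyte lineage cells from 16 mouse brain samples was quantified by the authors as estimated counts per gene. Per the submitters' processing notes, the tools were fastp 0.23.2, HISAT2 2.2.1, StringTie 2.2.1 and bedtools 2.25.0 with the build mm10; the annotation is not given in the sources used here. The deposited estimated counts were all whole numbers, so rounding them changed nothing. StringTie can divide reads between overlapping genes.

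Groups came from the sample titles. Genes with low counts were removed by filterByExpr (21768 of 53801 left), libraries scaled by TMM, and all 16 libraries fitted in 4 groups with edgeR 4.0.16 (robust quasi-likelihood, limma 3.58.1, R 4.3.3), with Benjamini-Hochberg adjustment over all tested genes and a threshold of 0.05. The fit was repeated without App_NCD 553 (22322 genes). Log2 CPM used a prior count of 0.5. SEs were derived from the fold change and the F value. Levels per kb used the union of exons in GENCODE release 21, which held 99.7% of the IDs. Depth per library ran from 64538297 to 217925484 counts. The procedure was tested on simulated data. No library in them stood apart as App_NCD 553 does, so that test does not bear on results that this library moves.

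The members and lists were chosen with earlier results of these data known. The genes named are the 6 members, up to 4 genes per list by smallest adjusted p (or the 3 highest per kb where none passed), and the 5 genes most correlated with each member; some genes that the rule names are not reported here, and the markers quoted singly were named outside that rule, after their values were seen. Alternatives were DESeq2 1.42.0, RLE scaling, library totals, scaling to 18 mature oligodendrocyte markers (with and without App_NCD 553), no filter, at least 10 counts in all libraries, and each library left out in turn.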

Additional observations from a re-analysis of the deposited data

Results flagged for a closer look

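Of 36 sets of 4 libraries examined (CPM of the 6 genes, depth, genes above 0 and the mitochondrial share, in each group), 3 had 1 library far from the other 3 of its group by Dixon's criterion, which chance meets in about 1 in 20 sets; all 3 concern App_NCD 553. Its Gjc3 level was 1132 CPM, with a gap to the nearest App_NCD library of 0.893 of the group's range; on the log2 scale the gap was 0.824 of the range, which falls just short of the criterion. It had 18928 genes above 0 (gap 0.868 of the range) and 39.4% mitochondrial counts (gap 0.99 of the range). The part of these library measures in the Gjc3 level was not tested.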

How the results depend on the processing

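Across 23 alternatives and the 5 comparisons, 680 of 690 fold changes of the 6 genes kept their direction and their side of the threshold, where a change of sign with a value within 0.1 of 0 was not counted as a change; 4 gained a call, 0 lost one and 6 reversed. Counted without that tolerance, 63 of the 690 changed sign. The number of the 6 called in App_NCD minus WT_NCD was 0; it became 1 (Jam3) with DESeq2 and ran from 0 to 1 with each library left out. It stayed at 0 in the other 4 comparisons under all alternatives. Gjc3 in App_NCD minus WT_NCD (0.21) became -0.28 with library totals and ran from -0.33 (without App_NCD 553) to 0.34. Gjb1 there (-0.16) became 0.20 with oligodendrocyte scaling and 0.27 when App_NCD 553 was also left out, and with both changes Gjb1 in App_HFD minus App_NCD (0.14) became -0.14 and Cldn11 in App_NCD minus WT_NCD (-0.37) became 0.15. Of 874 genotype fold changes of 19 other genes named, 799 kept their direction and side, 25 gained a call, 44 lost one and 6 reversed. These 6 were Gjb6 (0.26) and Cadm2 (0.27) in App_NCD minus WT_NCD, which became -0.39 and -0.31 with library totals, -0.79 and -0.53 without App_NCD 553 (up to 0.49 and 0.43 with any other library left out), and -0.49 and -0.23 with oligodendrocyte scaling and App_NCD 553 left out. The cause was not tested.

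Over all genes, calls in App_NCD minus WT_NCD (1826, 77.5% higher) and App_HFD minus WT_HFD (1554, 71.3% higher) became 3398 and 2508 with DESeq2, which also called 102 in App_HFD minus App_NCD, 7 in WT_HFD minus WT_NCD and 3 in the interaction, against 0 each by edgeR. Library totals gave 841 (62.4% higher) and 1176 (54.3%), oligodendrocyte scaling 3366 (97.8%) and 1222 (95.8%), and with App_NCD 553 also left out 2692 (97.5%) and 3165 (86.4%). With each library left out they ran from 939 to 3900 and from 869 to 4307. The all-gene median moved to -0.29 with library totals and 0.37 with oligodendrocyte scaling in App_NCD minus WT_NCD, and to 0.21 with oligodendrocyte scaling in App_HFD minus WT_HFD. Genotype calls over all alternatives, first on the control diet and then on the high-fat diet, were 0 to 3 and 0 to 2 for the gap junction list, 1 to 4 and 1 to 2 for potassium and water handling, 0 to 3 and 0 to 9 for tight junctions, and 2 to 6 and 0 to 6 for the node and paranode list. No paired analysis was possible because the 4 groups have no replicate number in common.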
